A study of Mus musculus with 2 samples.

Results

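Genes of the vascular endothelium and of the blood-brain barrier were followed in RNA of whole mouse neural tube, taken on embryonic day 12.5. The 10 genes were the receptors Kdr, Flt1, Tek and Tie1, the junction and surface proteins Cldn5 and Pecam1, the transporters Slc2a1, Mfsd2a and Abcb1a, and the ligand Vegfa. They were chosen by symbol, and their Ensembl identifiers matched 10 of 10 in both gene tables, among 43346 mouse genes listed. Both libraries were made from strain B6NCrl, from pooled tissue of both sexes, and they form 1 group with no treated or mutant counterpart. Replicate 1 came from 120 embryos and replicate 2 from 88 embryos, and the labels tie both to the same donor entry. Each library used 10 ng of total RNA longer than 200 nucleotides. With 1 group of 2 libraries no test between conditions was possible, so values are given per library and the spread is the one between the pools.

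Blood vessels enter the neural tube from the surrounding plexus and branch under the control of VEGF-A, which neural cells release and which endothelial cells bind through VEGFR2, the product of Kdr. VEGFR1, the product of Flt1, binds the same ligand tightly but signals weakly, and its soluble form acts as a decoy. Endothelial cells of the central nervous system go on to form a barrier under Wnt7a and Wnt7b signals, with sealed junctions, little transcytosis and a set of transporters for glucose, lipids and drugs.

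The reading of Vegfa rests on alternative internal exons and that of Flt1 on alternative ends, so the sequences that tell the forms apart are shown first. All lie on the minus strand of GRCm38, are written 5′ to 3′ and were read from GENCODE M21 transcripts, a later release than the M4 models behind the values. In Vegfa, exon 5 (chr17:46024065-46024094) is followed by exon 6 (chr17:46022277-46022348), exon 7 (chr17:46020991-46021122) and the coding part of exon 8 (chr17:46018858-46018879). Exons 6 and 7 encode basic, heparin-binding stretches that hold the protein at the cell surface and matrix, and their inclusion or loss gives the forms named by length. Capitals mark the stop codon.

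Vegfa exon 5: accaaagaaagacagaacaaagccagaaaa
Vegfa exon 6: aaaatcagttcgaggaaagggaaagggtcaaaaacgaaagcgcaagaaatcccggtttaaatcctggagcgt
Vegfa exon 7: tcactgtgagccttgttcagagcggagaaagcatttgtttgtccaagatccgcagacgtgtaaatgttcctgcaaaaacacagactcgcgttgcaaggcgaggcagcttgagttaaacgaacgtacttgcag
Vegfa exon 8, coding part: atgtgacaagccaaggcggTGA

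Exon 6 has 72 bases and exon 7 has 132 bases, so that loss of either keeps the reading frame. The form with neither has 120 residues after removal of the signal peptide of 26 residues, and the form with exon 7 alone has 164. In Flt1, the membrane and soluble forms share their coding sequence through exon 13, whose last 30 bases (chr5:147639225-147639254) are shown. The membrane form is then spliced over 4701 bases to its next coding exon (chr5:147634377-147634523), whereas the soluble form reads on into the intron (chr5:147639130-147639224) and stops after 31 codons of its own.

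Flt1 exon 13, last bases: tccttcggaagacagaagttctcgttagag
Flt1 soluble tail: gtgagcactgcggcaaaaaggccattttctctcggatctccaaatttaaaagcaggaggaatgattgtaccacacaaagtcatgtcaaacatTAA
Flt1 membrane, next coding exon: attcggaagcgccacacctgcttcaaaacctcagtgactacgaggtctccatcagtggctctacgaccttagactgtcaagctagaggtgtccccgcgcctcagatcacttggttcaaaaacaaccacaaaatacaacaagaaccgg

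Capitals again mark the stop codon. The soluble protein has 688 residues and the membrane protein 1333.

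Expected counts in the gene tables summed to 32612423 for replicate 1 and to 34555002 for replicate 2, with 31610805 and 33530172 of them on mouse genes. A count of 0 therefore allows up to 0.0949 CPM, counts scaled to a common library total, in replicate 1 and 0.0895 in replicate 2, taking 3 counts as the limit. Levels are given in TPM, a unit scaled by transcript length and library total that can be compared between genes, and 1 TPM was the threshold for detection. By their tissue markers both libraries were rich in neural RNA: Fabp7, a fatty acid binding protein of neural progenitors, stood at 1469 and 1537 TPM, with Vim at 937 and 988 TPM and Hes5 at 339 and 327 TPM. Tubb3, a neuronal tubulin, stood at 1004 and 1030 TPM, with Nefl at 599 and 717 TPM and Stmn2 at 455 and 569 TPM. Markers were detected for 6 of 6 genes of each of these lists. In bulk tissue, fewer cells of a type and less RNA per cell cannot be told apart, and a level here is an average over neural, vascular and other cells.

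Of the 10 genes, 9 were detected in both libraries, and they covered a wide range of levels. Slc2a1, the GLUT1 glucose transporter, was the highest and made up 41.1% of the summed TPM of the 10 genes in replicate 1 and 41.4% in replicate 2. By mean TPM the order was Slc2a1 (106.3), Cldn5 (46.3), Kdr (25.0), Pecam1 (19.8), Tie1 (19.3), Mfsd2a (17.9), Flt1 (11.3), Tek (7.995), Vegfa (3.21) and Abcb1a (0.79). Pecam1 and Tie1 exchanged places between the libraries, and no other neighbouring pair had overlapping values in the 2 libraries. The deposited intervals of Mfsd2a also overlap those of Tie1 and Pecam1. Those of Abcb1a, 0.627 to 5.77 and 0.749 to 5.72 TPM, overlap those of Vegfa, 3.36 to 5.23 and 2.79 to 4.42 TPM. As a scale, the median gene averaging 1 TPM or more stood at 16.8 TPM, and the median of the 10 genes was 18.1 TPM in replicate 1 and 18.8 in replicate 2.

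**Figure D1:**
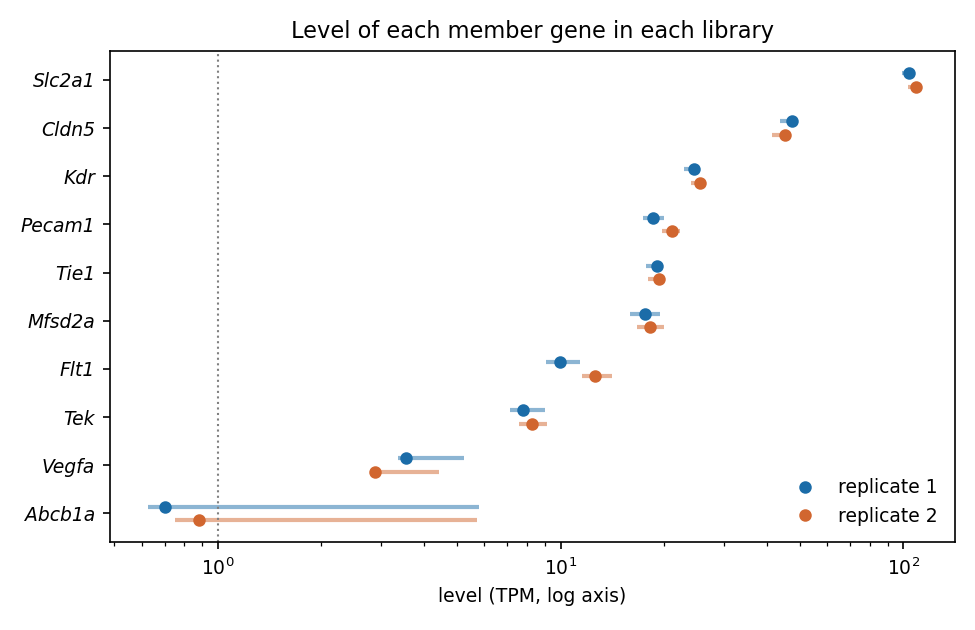
Level of each of the 10 genes in TPM on a log axis, with replicate 1 in blue and replicate 2 in orange. Points are the deposited estimates, lines the deposited intervals, and the dotted line is the detection threshold of 1 TPM; Flt1 is the gene whose lines do not overlap, and the intervals of Abcb1a run from below 1 TPM to 5.77 and 5.72 TPM.

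Vegfa (ENSMUSG00000023951, chr17:46016993-46032369, minus strand) encodes the main ligand of the pathway. It measured 3.54 TPM in replicate 1, with a deposited interval of 3.36 to 5.23, and 2.88 TPM in replicate 2, with 2.79 to 4.42. Only 18.6% of the genes averaging 1 TPM or more had a lower mean level. The intervals overlap, and the log2 count ratio of replicate 2 over replicate 1 was -0.25 with a 95% exact binomial interval of -0.58 to 0.08.

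Among the 5 VEGF ligands, Vegfa had the lowest TPM estimate of the 4 that were detected. Vegfb, which binds VEGFR1, measured 31.2 and 27.9 TPM and was 8.81 and 9.69 times as high as Vegfa per length. Pgf, placental growth factor and another VEGFR1 ligand, measured 6.98 and 7.77 TPM. Vegfc, a ligand of VEGFR3, measured 5.70 and 7.83 TPM, and its intervals did not overlap between the pools. It was 1 of the 4 detected ligands called by that rule. Over all 15735 genes averaging 1 TPM or more, 10.1% were higher in replicate 2 and 4.19% lower. Pgf and Vegfc lay above Vegfa in both libraries, at 1.97 and 2.70 times for Pgf and at 1.61 and 2.72 times for Vegfc. In replicate 1, however, the deposited interval of Vegfc, 4.80 to 6.33 TPM, overlapped that of Vegfa, 3.36 to 5.23 TPM. Vegfd stayed under the threshold, at 0.59 and 0.67 TPM.

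The count behind Vegfa was small, 168 in replicate 1 and 150 in replicate 2, and these were divided among 11 transcripts. The forms lacking exons 6 and 7 (Vegfa-201 and Vegfa-211) held 71.6% of the gene's TPM in replicate 1 and 48.8% in replicate 2. The form with exon 7 alone, Vegfa-202, held 3.99% and 26.8%. Transcripts with no coding region, which the annotation marks as retained introns, held 24.4% in each library. That share rests on only 8.24 and 8.85 expected counts. These transcripts have 463 to 874 bases, so that few counts give a large share of TPM. Vegfa-206 held 13.4% in replicate 1 and 0 in replicate 2, and Vegfa-205 held 0 and 14.6%. The 3 coding transcripts that contain exon 6, Vegfa-203, Vegfa-204 and Vegfa-207, had 0 expected counts in both libraries. The limit above does not bound them, because reads shared with other forms are divided by estimate. Their deposited intervals reached 0.477, 0.404 and 0.515 TPM in replicate 1 and 0.364, 0.277 and 0.267 TPM in replicate 2. By posterior mean they held 3.81%, 3.17% and 4.38% of the gene in replicate 1 and 3.42%, 2.56% and 2.50% in replicate 2.

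Among the coding forms alone, those without exons 6 and 7 made up 94.7% in replicate 1 and 64.5% in replicate 2 (79.6% ± 21.3, SD, n = 2). By expected counts the shares were 94.1%, with a 95% exact binomial interval of 88.8% to 97.0%, and 62.2%, with 53.9% to 70.4%. Those intervals do not overlap, but they treat the division of reads among transcripts as known. The deposited intervals, which cover that division, overlap for every Vegfa transcript, including Vegfa-202 at 3.94e-06 to 1.27 TPM in replicate 1 and 0.179 to 1.77 TPM in replicate 2. With posterior mean shares the split was 67.2% and 46.7%. Vegfa-211 carried much of the estimate and has 3324 bases in the tables against 975 in the later annotation, so its class is uncertain; without it the shares were 88.8% and 39.0%.

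Kdr (ENSMUSG00000062960, chr5:75932827-75978458, minus strand) encodes VEGFR2, the main signalling receptor for VEGF-A. It measured 24.4 TPM in replicate 1 and 25.6 TPM in replicate 2, from 2822 and 3064 counts. Of the genes averaging 1 TPM or more, 59.9% lay lower. The libraries were close, with a log2 count ratio of 0.03 and an interval of -0.04 to 0.11. Nearly all of it was 1 transcript, Kdr-201, at 99.4% and 99.3% of the gene's TPM.

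Flt1 (ENSMUSG00000029648, chr5:147561604-147726011, minus strand) encodes VEGFR1. It measured 9.97 TPM in replicate 1, with an interval of 9.08 to 11.4, and 12.6 TPM in replicate 2, with 11.5 to 14.1. Replicate 2 was the higher one and the intervals do not overlap; the counts were 880 and 1144, a log2 ratio of 0.29 with an interval of 0.17 to 0.42. Flt1 had the widest relative spread of the 10 genes, with a coefficient of variation (CV) of 16.3%, against a median of 5.74% over all genes tested.

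Kdr exceeded Flt1 by 2.45 times in replicate 1, with a 95% counting interval of 2.27 to 2.65, and by 2.04 times in replicate 2, with 1.90 to 2.18. The direction was the same in both libraries, but the size of the ratio differed between them beyond counting error. Part of the Flt1 value came from Flt1-201, a transcript annotated without a coding region. It shares its first 11 exons with both coding forms, base for base, and has 1 exon of its own, of 241 bases (chr5:147654269-147654509).

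By TPM, Flt1-201 held 44.9% of the gene in replicate 1 and 45.9% in replicate 2. By counts it held 19.8% and 20.3%, because it is the shortest of the 3 transcripts with counts. The membrane form, Flt1-202, held 25.0% and 27.1% of the TPM, and the soluble form, Flt1-203, held 30.1% and 27.0%. Per length, membrane Flt1 measured 2.49 TPM in replicate 1 and 3.41 in replicate 2, and soluble Flt1 3.00 and 3.40.

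The soluble form therefore made up 54.6% of the coding forms in replicate 1 and 49.9% in replicate 2 (52.3% ± 3.33, SD, n = 2). From expected counts the shares were 52.3%, with an interval of 48.5% to 56.0%, and 47.6%, with 44.3% to 50.9%. The intervals by counts overlap each other, and, as the forms differ in length, an equal count is not an equal amount. They also treat the division of reads between the forms as known. The deposited intervals of the soluble and membrane forms overlap within each library. They were 2.55 to 3.31 and 2.10 to 2.74 TPM in replicate 1, and 2.92 to 3.71 and 2.94 to 3.69 TPM in replicate 2. Relative to the coding forms only, at 5.49 and 6.81 TPM, Kdr-201 was 4.42 and 3.73 times as high, and relative to the membrane form it was 9.75 and 7.44 times as high.

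The difference between the libraries was carried unevenly by the forms in these estimates, and whether the forms themselves differ in it was not tested. For membrane Flt1 the deposited interval was 2.10 to 2.74 TPM in replicate 1 and 2.94 to 3.69 in replicate 2, which do not overlap, whereas soluble Flt1 had 2.55 to 3.31 and 2.92 to 3.71. Among the 15 transcripts of these genes that averaged 1 TPM or more, it was the only one with intervals apart and higher in replicate 2, and none was lower. Over all 36364 transcripts at that level the shares were 5.52% higher and 2.74% lower, so 1 of 15 lies near the background.

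**Figure D2:**
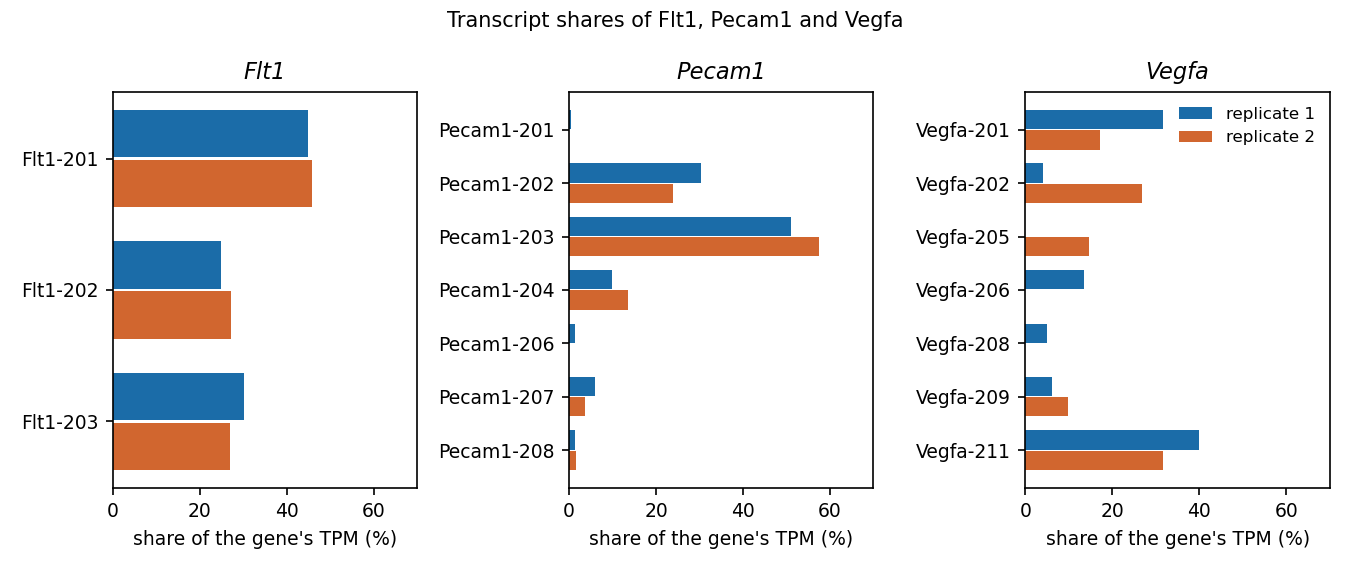
Share of each gene's TPM held by each transcript with a value above 0, in percent, for Flt1, Pecam1 and Vegfa, with replicate 1 in blue and replicate 2 in orange. The leading transcript of each gene is the same in both libraries. Flt1-202 and Flt1-203 narrowly exchange places below it, and Vegfa-202 moves from 3.99% to 26.8%.

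The other receptors of the family were unequal. Flt4, the VEGFR3 gene of lymphatic and early vessels, measured 1.94 and 2.31 TPM, and Kdr was 12.6 and 11.1 times as high. The coreceptors Nrp1 and Nrp2, which neurons also use to read semaphorins, measured 53.7 and 61.1 TPM and 36.1 and 36.8 TPM. By TPM, 5 of 5 receptor genes were higher in replicate 2, as were 58.5% of all genes tested, with a median log2 ratio of 0.17 against 0.03 over all genes. By count ratio 4 of 5 were higher and Nrp2 was at -0.01. The deposited intervals did not overlap for 2 of 5, Flt1 and Nrp1, both higher, where 10.1% of all genes were higher by that rule.

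Tie1 (ENSMUSG00000033191, chr4:118471191-118490061, minus strand) and Tek (ENSMUSG00000006386, chr4:94739289-94874976, plus strand) encode the Tie receptors, of which TIE2, from Tek, binds angiopoietins and TIE1 modulates it. Tie1 measured 19.2 TPM in replicate 1 and 19.4 TPM in replicate 2, the smallest relative spread of the 10 genes, with a CV of 0.953%. Its counts were 1513 and 1573, a log2 ratio of -0.03 with an interval of -0.13 to 0.07. Tek measured 7.75 TPM in replicate 1 and 8.24 in replicate 2, from 692 and 762 counts, a log2 ratio of 0.05 with an interval of -0.10 to 0.20. Both genes were thus close between the pools. Tie1 was 2.47 times as high as Tek in replicate 1 and 2.36 times in replicate 2.

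Of their ligands, Angpt1, the activating ligand that mural and other perivascular cells release, measured 8.39 and 9.43 TPM. The estimate was above that of Tek in both libraries, but the deposited intervals overlapped in each. In replicate 1 they were 7.58 to 8.79 TPM for Angpt1 and 7.13 to 9.02 for Tek. In replicate 2 they were 8.56 to 9.82 and 7.55 to 9.13 TPM. Angpt2, a context-dependent antagonist made by endothelial cells, measured 3.39 and 2.34 TPM. The ratio of Angpt1 to Angpt2 was 2.47 in replicate 1, with a counting interval of 2.09 to 2.95, and 4.03 in replicate 2, with 3.30 to 4.96. These ratio intervals do not overlap, but they cover counting error only. The deposited intervals of Angpt2, 2.54 to 4.42 and 1.69 to 3.13 TPM, overlap between the pools, as do those of Angpt1. Angpt4 measured 0.70 and 0.32 TPM, under the threshold, and Ptprb, the endothelial phosphatase that acts on TIE2, measured 2.08 and 1.89 TPM.

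The full-length receptor transcripts dominated at both genes. Tie1-201, with 1134 residues, held 92.7% of the gene's TPM in replicate 1 and 85.8% in replicate 2. Tie1-203 held 5.08% and 7.78%. Its annotated coding region, of 647 residues, ends before coding exons 13 to 23 of Tie1-201 and so leaves out the kinase domain. The transcript itself is not shorter, with 22 exons and 4234 bases against 23 exons and 4091 bases for Tie1-201. Tek-203, with 1123 residues, held 77.8% and 81.5%, and Tek-201, which differs from it by 1 residue in length, held 11.6% and 14.4%. Tek-202 lacks coding exon 4, of 153 bases, and held 10.6% and 4.13%, with overlapping deposited intervals of 0.120 to 2.42 and 0.0376 to 1.36 TPM.

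Cldn5 (ENSMUSG00000041378, chr16:18776847-18778262, plus strand) encodes claudin-5, the main tight junction strand protein of brain endothelium. It measured 47.5 TPM in replicate 1 and 45.1 TPM in replicate 2, from 1241 and 1224 counts, all on 1 transcript. Its deposited intervals, 43.6 to 48.7 and 41.4 to 46.3, overlap, and the log2 count ratio was -0.10 with an interval of -0.22 to 0.01. It was 3.98 and 3.24 times as high as Cdh5, the VE-cadherin gene of all endothelial adherens junctions, which measured 11.9 and 13.9 TPM. It was also above Plvap, the diaphragm protein of fenestrated and immature vessels, by 1.40 times in replicate 1 and 1.13 times in replicate 2. Plvap itself measured 33.9 and 39.8 TPM. Cdh5 and Plvap were named after their values were seen.

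Pecam1 (ENSMUSG00000020717, chr11:106654217-106750628, minus strand) encodes CD31, an adhesion protein of endothelial cells that platelets and leukocytes also carry. It measured 18.6 TPM in replicate 1, with an interval of 17.4 to 20.0, and 21.1 TPM in replicate 2, with 19.8 to 22.4. The deposited intervals overlap, while the log2 count ratio was 0.17 with an interval of 0.06 to 0.28.

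Pecam1 transcripts differed in the exons of the cytoplasmic tail. Pecam1-203, which lacks coding exons 14 and 15 (80 bases), held 51.0% of the gene's TPM in replicate 1 and 57.4% in replicate 2. Pecam1-202, which lacks coding exon 15 alone (23 bases), held 30.3% and 23.8%. The full-length transcript, Pecam1-204, held 9.86% and 13.6%. Among these 3 the tail without either exon made up 55.9% and 60.6%, and the order of the 3 estimates was the same in both libraries. Neighbours in that order have overlapping deposited intervals in both. In replicate 1 they were 6.31 to 11.7 TPM for Pecam1-203, 2.70 to 8.02 for Pecam1-202 and 0.530 to 3.46 for Pecam1-204. In replicate 2 they were 8.21 to 14.1, 2.92 to 8.34 and 0.978 to 4.42 TPM.

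Endothelial surface and junction genes, a list that includes Cldn5 and Pecam1, were detected for 16 of 16 in both libraries. The other 14 had a median of 20.5 TPM in each library. The highest of the list were Ramp2, the adrenomedullin coreceptor, at 66.0 and 61.1 TPM, and Egfl7, a secreted endothelial protein, at 62.8 and 62.0 TPM, followed by Cldn5. Of the 10 endothelial transcription factors 9 were detected, led by Lmo2 at 38.1 and 36.6 TPM, Ets1 at 27.1 and 30.3 TPM and Sox18 at 16.96 and 16.85 TPM. Etv2, the transient inducer of the early endothelial and blood lineage, had 0 counts in both libraries.

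Slc2a1 (ENSMUSG00000028645, chr4:119108711-119137983, plus strand) carries glucose across the brain endothelium, and progenitors and red cells of the embryo can also use it. It measured 104 TPM in replicate 1 and 109 TPM in replicate 2, from 5166 and 5607 counts. Its mean was higher than that of 89.6% of genes averaging 1 TPM or more. The log2 count ratio was 0.03 with an interval of -0.02 to 0.09. Its main transcript, Slc2a1-201, held 99.4% and 99.3% of the gene's TPM. A pair of antisense genes that overlap it measured at most 0.28 and 0.64 TPM.

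Slc2a1 was set beside 2 other glucose transporters, and it was higher than both in each library. Slc2a3, the neuronal transporter GLUT3, measured 18.6 and 21.6 TPM, and Slc2a1 was 5.60 and 5.04 times as high. Slc2a4, the insulin-responsive transporter GLUT4, measured 10.1 and 10.3 TPM. Slc2a1 was 2.19 and 2.41 times as high as Cldn5.

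Mfsd2a (ENSMUSG00000028655, chr4:122946850-122961188, minus strand) encodes the lipid transporter that carries docosahexaenoic acid into the brain and restrains transcytosis. It measured 17.6 TPM in replicate 1 and 18.2 TPM in replicate 2, from 682 and 740 counts, with a log2 count ratio of 0.03 and an interval of -0.12 to 0.18. Slc2a1 was 5.91 and 5.97 times as high. Mfsd2a-201 held 93.96% and 95.17% of the gene's TPM.

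Abcb1a (ENSMUSG00000040584, chr5:8660077-8748575, plus strand) encodes P-glycoprotein, the drug efflux pump of the mature barrier. It was the only one of the 10 genes under the threshold, at 0.70 TPM in replicate 1 and 0.88 TPM in replicate 2. The counts were 57.1 and 71.0, so the gene was not at 0, and their log2 ratio was 0.23 with an interval of -0.29 to 0.76. The deposited interval ran up to 5.77 TPM in replicate 1 and 5.72 in replicate 2, and the posterior mean was 2.46 and 2.58 TPM.

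Most of that width belongs to 1 short transcript. Abcb1a-204 has 129 bases and 0 counts in both libraries, and its own deposited interval reached 4.87 and 4.65 TPM; it holds 66.2% and 60.8% of the gene in the posterior mean. Without it the posterior mean of the gene averaged 0.92 TPM ± 0.127 (SD, n = 2). The coding transcript Abcb1a-201 measured 0.46 and 0.50 TPM, with intervals of 0.292 to 0.626 and 0.333 to 0.699, and a transcript with a retained intron, Abcb1a-202, held 35.1% and 43.2% of the gene's TPM.

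The paralog Abcb1b, which encodes a second P-glycoprotein, was lower, at 0.25 and 0.22 TPM. Counts of the pair sum to 78 and 90, whole numbers that the separate values are not, so reads were divided between these similar genes and each value is uncertain. The other major efflux pump, Abcg2, measured 28.3 and 28.8 TPM, which is 40.4 times Abcb1a in replicate 1, with a counting interval of 30.9 to 53.6, and 32.8 times in replicate 2, with 25.8 to 42.2. These intervals leave out the division of reads among transcripts and between the paralogs. By posterior mean Abcg2 stood at 29.5 and 30.1 TPM, against 2.46 and 2.58 for Abcb1a, or 0.92 on average without Abcb1a-204. Abcg2 was named after its values were seen.

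Of 15 barrier transporters and regulators, 13 were detected in both libraries. After Slc2a1 the highest were Slc3a2, the heavy chain of the large amino acid transporter, at 71.5 and 72.5 TPM, and Tfrc, the transferrin receptor that erythroblasts also express, at 39.9 and 40.2 TPM. Those under the threshold were Abcb1a and Slco1a4, an organic anion transporter, at 0.05 and 0.18 TPM. The Wnt pathway genes of brain vessels were all detected, 11 of 11. They were led by the ligand Wnt7b at 77.4 and 70.3 TPM, Tnfrsf19 at 24.0 and 26.7 TPM and Lef1, a transcription factor of the pathway, at 13.4 and 14.1 TPM, and neural cells express these genes too.

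Arterial, venous and tip cell genes were detected for 11 of 12. The highest were Nr2f2, a venous transcription factor, at 58.0 and 62.0 TPM, Efnb2, the arterial ephrin, at 36.5 and 41.2 TPM, and Hey1, a Notch target, at 38.3 and 38.0 TPM, and all of these are used by neural cells as well. Esm1, a tip cell marker, measured 0.76 and 0.82 TPM. The lymphatic list was detected for 3 of 3 genes, with Pdpn at 99.5 and 95.9 TPM, Prox1 at 14.4 and 15.3 TPM and Lyve1 at 3.57 and 3.55 TPM; Prox1 and Pdpn are also neural genes. Hypoxia response genes, in a list that does not hold Vegfa, were detected for 11 of 12, from Ldha at 764 and 699 TPM, Pgk1 at 263 and 247 TPM and Bnip3 at 69.4 and 70.9 TPM down to Car9 at 0.34 and 0.28 TPM.

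**Figure D3:**
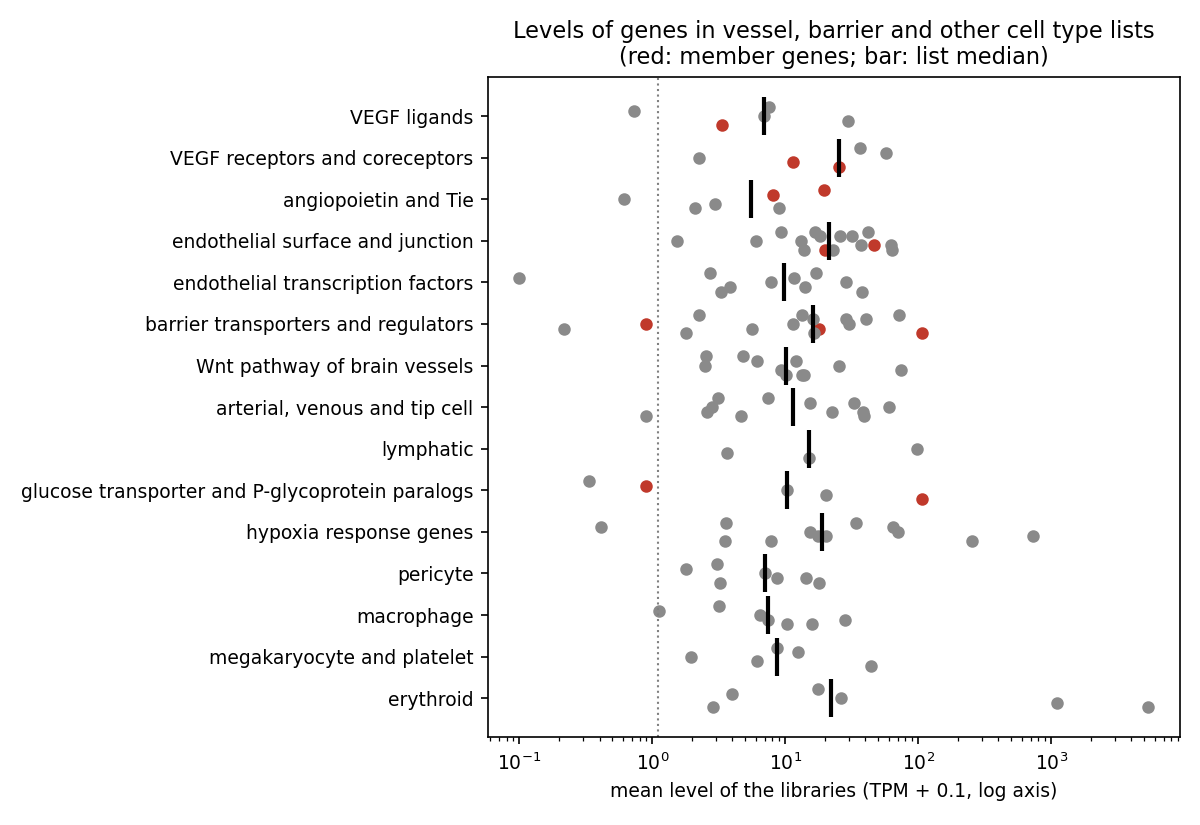
Mean level over both libraries of each gene in the vessel, barrier and other cell type lists, as TPM + 0.1 on a log axis. Red points are the 10 genes, grey points the other genes of each list, black bars the list medians and the dotted line the threshold of 1 TPM; Vegfa lies below the other detected ligands and Slc2a1 is the highest of its lists.

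Other cell types of the tissue were measured beside the endothelial genes. Pericyte markers were detected for 7 of 7, with a summed level of 52.8 TPM in replicate 1 and 57.5 in replicate 2, led by Pdgfrb at 16.96 and 18.4 TPM, Notch3 at 14.1 and 14.3 TPM and Rgs5 at 8.44 and 8.77 TPM. Macrophage markers summed to 68.6 and 74.8 TPM, with 6 of 7 detected in both libraries, led by C1qb at 26.9 and 28.9 TPM, C1qa at 14.4 and 17.4 TPM and Csf1r at 10.1 and 10.4 TPM. Megakaryocyte and platelet markers summed to 68.9 and 75.9 TPM, with 5 of 5 detected, led by Pf4, a platelet chemokine, at 41.8 and 45.5 TPM, Gp1bb at 11.0 and 13.7 TPM and Ppbp at 8 and 9.04 TPM.

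Erythroid markers summed to 6567 and 6483 TPM, with 6 of 6 detected, nearly all of it embryonic globin such as Hbb-y at 5432 and 5298 TPM and Hba-x at 1086 and 1133 TPM, with the heme enzyme gene Alas2 at 26.5 and 25.7 TPM. No marker of these 4 lists was at 0 in both libraries. Pf4 was 2.25 and 2.16 times as high as Pecam1, which platelets share, and Slc2a1 and Tfrc are used by blood cells. The part of blood cells in the levels of the 10 genes was not tested.

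Between the pools the 10 genes differed little. Of the 9 that averaged 1 TPM or more, 0 were over 2-fold apart, where 1.43% of all 15735 genes at that level were. Their log2 TPM ratios of replicate 2 over replicate 1, with 1 added to each value, ran from -0.23 for Vegfa to 0.31 for Flt1. The median ratio was 0.06, against 0.03 for all genes, and the median size of the ratio was 0.07, against 0.11. By TPM, 7 of the 9 were higher in replicate 2, as were 58.5% of all genes. Tie1 was among the 7 at a log2 TPM ratio of 0.02, and its count ratio had the opposite sign, so it has no firm direction.

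Deposited intervals did not overlap for 1 of the 9, Flt1, which was higher in replicate 2. Over all genes 10.1% were higher and 4.19% lower by that rule, so 1 of 9 is near the background. By the 95% interval of the count ratio, 2 of the 9, Flt1 and Pecam1, were higher in replicate 2 and 0 were lower, where 18.9% of all genes were higher and 14.5% lower. These intervals cover counting error only. Pericyte markers were higher in replicate 2 for 6 of 7 genes by TPM and 5 of 7 by count ratio, and macrophage markers likewise for 6 of 7 and 5 of 7. Megakaryocyte markers were higher for 4 of 5 by TPM and 2 of 5 by count ratio. The median log2 TPM ratios of these 3 lists were 0.11, 0.10 and 0.12, beside 0.13 for the endothelial surface and junction genes and 0.14 for the neuron markers. Other lists had medians below 0. These were endothelial transcription factors at -0.02, neural progenitor markers at -0.05, VEGF ligands at -0.009 and lymphatic genes at -0.006. By count ratio the medians of the 3 lists were 0.09, 0.07 and -0.03. Those of the surface and junction genes and the neuron markers were 0.06 and 0.10. Deposited intervals were apart and higher in replicate 2 for 3 of 16 endothelial surface and junction genes and 4 of 6 neuron markers. The part of other cell types in the differences of Flt1 and Pecam1 was not tested.

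**Figure D4:**
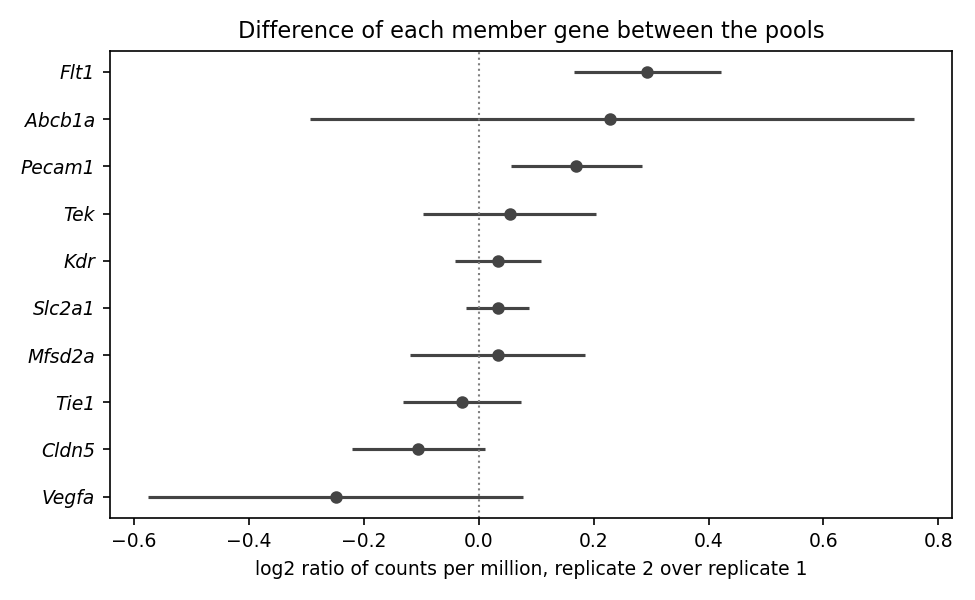
Log2 ratio of CPM of replicate 2 over replicate 1 for each of the 10 genes, with 95% exact binomial intervals that cover counting error only. Flt1 and Pecam1 lie above 0 with their whole interval, and the other 8 intervals include 0.

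The most abundant transcript was the same in both libraries for 10 of 10 genes, or for 9 of 10 by posterior mean shares. It held at least 90% of the TPM in both libraries for 4 of them, Kdr, Cldn5, Slc2a1 and Mfsd2a. The 10 genes have 46 transcripts in the tables, of which 27 had counts above 0 in both libraries and 13 had 0 counts in both.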

How the data were processed

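Total RNA-seq was measured in 2 libraries of embryonic neural tube, and the authors deposited a gene table and a transcript table for each. Per the deposited read-me text the assembly is mm10 and the annotation GENCODE M4; the program and the strand setting are not given in the sources used here. The deposited expected counts are estimated reads and need not be whole. TPM and FPKM, per the file headers, take effective length and depth into account. A deposited percent column gives the part of its gene's TPM that a transcript holds. TPM bounds were deposited too, as credibility intervals of unstated level. By its title the series has been superseded, and the newer series was not analysed here.

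Mouse genes were matched by Ensembl identifier, and exons and sequences were taken from GENCODE M21 on the same assembly. Of 46 member transcripts, 5 have another length there. CPM used the summed gene counts of 31610805 and 33530172. Genes averaging 1 TPM or more were compared between pools, with 1 added before taking log2. Count ratios have 95% exact binomial intervals on expected counts without rounding (scipy 1.17.1). Intervals of the Flt1 and Vegfa form shares used rounded expected counts. TMM (edgeR 4.0.16) and DESeq2 1.42.0 gave alternative scaling, and the code was tested on simulated data. Nothing says how independent the 2 pools are beyond their labels, so the spread between them may be partly technical.

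The members and lists were chosen with earlier results of these data known. All 10 members were named, with every gene of the VEGF ligand, VEGF receptor, angiopoietin and paralog lists. Of each other list the 3 highest by mean TPM and those under 1 TPM in both libraries were named. Transcripts were named at 10% or more of their gene in either library, and all coding transcripts of Flt1 and Vegfa were named.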

Additional observations from a re-analysis of the deposited data

How the results depend on the processing

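No paired analysis was possible because both libraries form 1 group. The median level of the 10 genes, 18.4 TPM, ranged from 18.1 to 18.8 when either library was left out; it was 11.1 in FPKM and 19.9 when TPM was rescaled over mouse genes, and both move by construction of the unit. With CPM in place of TPM, which leaves length in, 4 of 10 genes kept their rank. The share of Vegfa coding forms without exons 6 and 7, 79.6%, was 56.9% by posterior mean shares and 64.5% to 94.7% with 1 library left out. Omitting Vegfa-211, an alternative chosen after seeing the data, gave 63.9%. The soluble share of Flt1 ran from 49.9% to 54.6%. Rank order with 1 library left out kept 8 to 10 genes in place. The number of genes over 2-fold apart stayed at 0 under every scaling, pseudocount and filter tried, and the number whose count interval left out 0 stayed at 2. List genes detected in both libraries numbered 125 of 134, with 125 to 126 in single libraries, 129 at 0.5 TPM and 98 at 5 TPM. No difference whose interval left out 0 was reversed. The counts were low for Abcb1a, at 57.1 and 71.0, and for Vegfa, at 168 and 150, whose transcripts all had overlapping deposited intervals.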
